A study of Brassica napus with 6 samples.

Results

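Some genes of the hybrid oilseed rape HZ62 were read at similar levels in seedling and flower bud and at much lower levels in silique. From the normalized table, genes were kept whose mean in silique was below 0.25 times the mean in seedling and below 0.25 times the mean in flower bud, while the seedling and flower bud means lay within 2-fold of each other. These conditions held for 1102 of the 80932 genes in the table, for 640 genes when the first seedling library was left out, and for 69 genes, 64 of them members, when 1 was added to every mean before taking ratios. The 200 of them with the highest level are the members described here, where level means the average of the seedling mean and the flower bud mean. The values of all 6 libraries were used to choose the members, so every expression value given for them is a description and carries no p-value.

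Oilseed rape (Brassica napus) is an allotetraploid: its A chromosomes come from a relative of turnip (Brassica rapa) and its C chromosomes from a relative of cabbage (Brassica oleracea), so many genes are present as a pair of closely related A and C copies. The silique is the fruit of this family. It grows from the pistil after fertilization, and its green walls enclose the developing seeds. A young flower bud instead holds the sepals, petals, anthers and pistil while they are still being formed, and a seedling is mostly leaf, stem and root.

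HZ62 is a hybrid, and its genotype is labelled WT in all libraries. There were 2 libraries of seedlings aged 2 weeks, 2 of flower buds shorter than 2 mm and 2 of siliques 3 to 5 cm long, all from plants kept at 16 h of light and 8 h of dark at 22 and 18 °C and all made from polyadenylated RNA. Separate plants are not stated for the libraries of 1 tissue, and the spread between them may be technical. The study's design text sets HZ62 beside its parents, which are not analysed here.

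Each normalized value is a whole number of reads times a factor of its library. The reads recovered in this way numbered 24110359 and 3973408 in the seedling libraries, 12614212 and 12543622 in the flower bud libraries, and 12506762 and 10359099 in the silique libraries. The second seedling library was the shallowest, and 1 read was worth 0.273 there against 0.0377 in the first. Even numbers made up 83.0% to 90.0% of the counts above 0 as deposited, so 1 count may not be 1 independent molecule. Identifiers begin with ZS11, and 0 of 95143 matched the reference table of gene names. The members are therefore given by identifier without a function, and the labelled tissues could not be checked against marker genes. No genome of the build behind these gene models was at hand, so no sequence is shown.

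Over the 200 members together, the normalized values summed to 2300.3 and 2344.9 in the seedling libraries and to 2244.6 and 2226.4 in the flower bud libraries. The sums in the silique libraries were 310.4 and 293.7. As means these were 2323 ± 31.5, 2236 ± 12.9 and 302.0 ± 11.8 for the 3 tissues in that order (SD, n = 2 each). The members took between 0.216% and 0.253% of the reads of a seedling or flower bud library, and 0.0306% and 0.0288% of the reads of the silique libraries. In such bulk tissue, fewer cells of a type and less RNA per cell cannot be told apart.

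**Figure D1:**
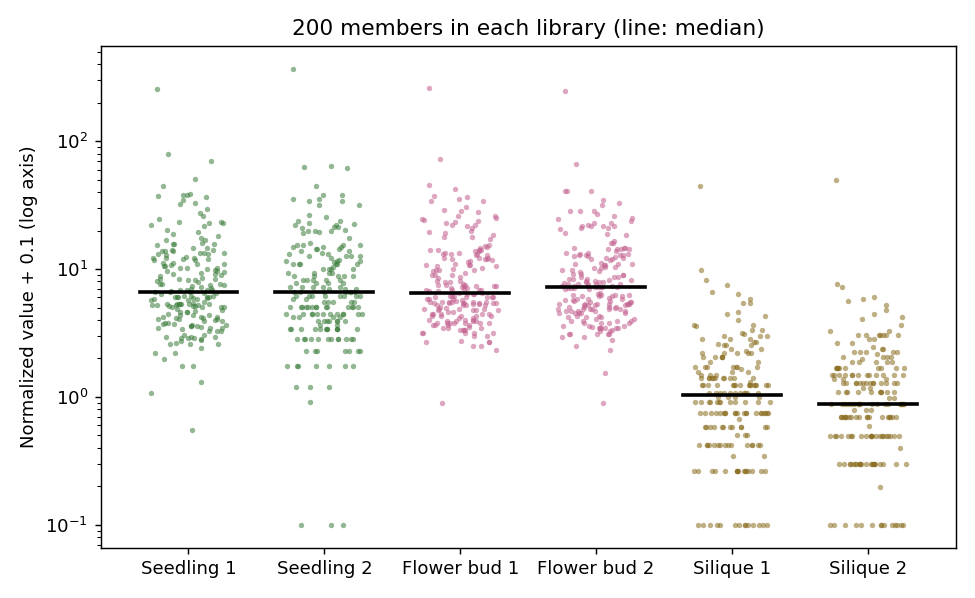
Normalized value plus 0.1 of each of the 200 members (points, log axis) in each of the 6 libraries, with the median of the members as a line. The medians lie between 6.38 and 7.16 in the seedling and flower bud libraries and at 0.933 and 0.788 in the silique libraries (without the added 0.1), and the lowest row of points holds genes with 0 reads.

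The members were mostly genes of middling level. The median level over the members was 6.61, against 8.90 over the 48014 genes with a mean of at least 1 over the 3 tissues, called expressed below. The highest level was 282.65 and the second 70.16, 65 members were above 10, 21 were above 20, and 66 were below 5. The last member by rank had a level of 3.11.

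In silique the members had a median of 14.1% of their level in the other tissues, with quartiles of 8.00% and 18.4% and a maximum of 23.4%. With 1 added to every mean before the ratio, which weighs most on genes of low level, the median was 25%. In fold terms the median member was 6.99-fold lower in silique, and the members with silique reads ranged from 4.27-fold to 81.6-fold lower. In 115 members the silique mean was between 12.5% and 25% of that level, in 49 between 6.25% and 12.5%, in 29 above 0 and under 6.25%, and in 7 no read was found in either silique library. The depth of the drop did not follow the level step by step: the median percentage was 14.0% over ranks 1 to 50, 14.3% over ranks 51 to 100, 16.4% over ranks 101 to 150 and 11.8% over ranks 151 to 200.

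**Figure D2:**
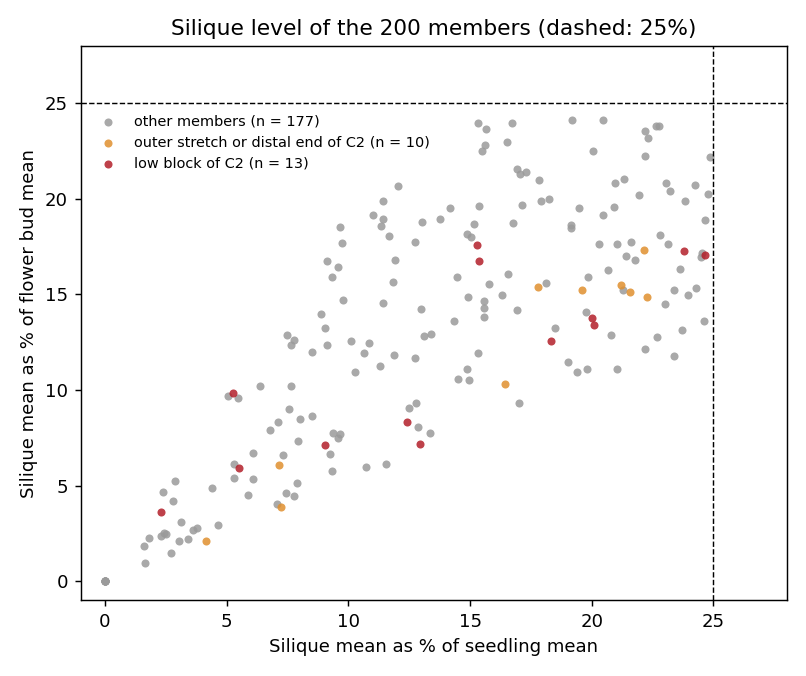
Silique mean of each member as a percentage of its seedling mean (horizontal axis) and of its flower bud mean (vertical axis), 1 point per member. Dashed lines mark the 25% limits of the rule. Members of the end region of chromosome C2 (coloured) lie within the range of the others (gray), a range that the rule itself limits.

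The member with the highest level was ZS11C04G052450 on chromosome C4. Its normalized values were 256 and 369 in the seedling libraries, 258 and 248 in the bud libraries, and 44.6 and 50.04 in the silique libraries. It was thus 5.97-fold lower in silique, and the lowest of the other 4 libraries was still far above the higher silique library. ZS11A02G032190 came second (chromosome A2, 23689170 to 23692569, plus strand). It had 79.1 and 62.2 in the seedling libraries, 72.6 and 66.7 in the bud libraries, and 6.49 and 5.52 in the silique libraries, which is 11.7-fold lower. Without the first of these genes the members' sum still ran from 1976.4 to 2044.3 in the seedling and flower bud libraries, and it was 265.8 and 243.6 in the silique libraries, so the sums do not rest on that gene.

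The 7 members with no silique read had levels from 3.57 to 16.5, 4 of them on C chromosomes and 3 on A chromosomes. ZS11C08G032550 on chromosome C8 had the highest level among them. Its values were 16.9 and 20.7 in the seedling libraries, 14.0 and 14.5 in the bud libraries, and 0 in both silique libraries, from 448, 76, 174 and 182 reads in the other 4. Because most counts were even and may stand for pairs of reads, the floor was set at 3 pairs (6 reads) over both silique libraries together, and against it the gene was at least 61.9-fold lower in silique. ZS11C09G009800 on chromosome C9 had 6.40 and 4.91 in the seedling libraries, 11.9 and 8.91 in the bud libraries, and 0 in both silique libraries, at least 30.1-fold lower. For the other members with no silique read the bound was lower still, down to at least 13.4-fold, since a gene with fewer reads elsewhere allows only a weaker bound. These bounds cover counting error only. Among members with silique reads, the deepest drop was that of ZS11A06G036330 on chromosome A6 (25552560 to 25554428, minus strand; named after its values were seen). It had 13.9 and 19.7 in the seedling libraries, 28.7 and 28.5 in the bud libraries, and 0.162 and 0.394 in the silique libraries, where these 2 values stood for 2 and 4 reads, too few to fix the size of the drop.

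Between seedling and flower bud the members were held within 2-fold by the rule. On the deposited scale flower bud was the higher of the pair in 112 members and seedling in 88. The median ratio of flower bud to seedling was 1.04, against 1.49 over all expressed genes. Beside a typical expressed gene the members thus leaned towards seedling. Over all genes of the edgeR test below, the median log2 change was 0.02 for silique against seedling and −0.01 for silique against flower bud. There a typical gene was near even across tissues, so the 112 to 88 split depends on the scale. ZS11C03G015650 (chromosome C3, 8124309 to 8126780, plus strand) leaned most towards flower bud. It had 5.95 and 0.819 in the seedling libraries, 7.38 and 6.05 in the bud libraries, and 0.892 and 0.690 in the silique libraries. The second seedling value rested on 3 reads and lay below 1 of the silique values, so the lean came with a wide gap between the seedling libraries. ZS11C02G062480 (chromosome C2, 60978784 to 60980335, minus strand) came next, with 3.65 and 1.09 in the seedling libraries, 4.90 and 4.46 in the bud libraries, and 0 and 0.197 in the silique libraries. On the seedling side the extreme was ZS11C03G043360 (chromosome C3, 28079585 to 28081968, plus strand), the member of rank 3. It had 69.8 and 61.2 in the seedling libraries, 34.0 and 32.6 in the bud libraries, and 1.14 and 1.97 in the silique libraries. Here the 3 tissues formed 3 separate steps, with the libraries of each tissue close together. ZS11A09G020980 (chromosome A9, 14022214 to 14025981, plus strand) had 5.72 and 4.91 in the seedling libraries, 2.57 and 2.87 in the bud libraries, and 0 in both silique libraries.

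At the edge of the 0.25 limit, ZS11C03G006010 (chromosome C3, 3044051 to 3045467, minus strand) lay just inside with a silique to seedling ratio of 0.249. Its values were 8.13 and 6.55 in the seedling libraries, 8.51 and 7.96 in the bud libraries, and 2.27 and 1.38 in the silique libraries. ZS11C02G056880 (chromosome C2, 56283612 to 56285678, minus strand) lay just outside with a ratio of 0.2505, from 11.4 and 4.91 in the seedling libraries, 9.63 and 11.0 in the bud libraries, and 2.11 and 1.97 in the silique libraries. At the edge of the rank limit, the member of rank 200 was ZS11C01G018790 (chromosome C1, 12998402 to 13000988, plus strand, overlapping 1 other gene model). It had 3.46 and 4.10 in the seedling libraries, 3.45 and 1.43 in the bud libraries, and 0.487 and 0.394 in the silique libraries, and the next gene by level, ZS11C06G050640, was left out with a level that also rounds to 3.11. The genes on either side of a limit were nearly alike.

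In 195 of the 200 members both silique libraries lay below all 4 others, an order found in 10.8% of all expressed genes, and the rule itself favours it. In 191 members all 4 other libraries were more than 2-fold above the higher silique library. The 5 members with overlap were ZS11C06G038730, ZS11A03G044900, ZS11C04G062900, ZS11C03G015650 and ZS11A01G034230 (some named after their values were seen). The lowest library outside silique was the shallow second seedling library in 4 of them and the first in 1. ZS11C06G038730 on chromosome C6 had 13.9 and 0 in the seedling libraries, 10.4 and 8.28 in the bud libraries, and 0.324 and 0.197 in the silique libraries. The seedling values came from 368 and 0 reads, so these 2 libraries went opposite ways for this gene, and its silique percentage moved from 3.20% to 5.58% without the first seedling library. ZS11C04G062900 on chromosome C4 had 9.98 and 0 in the seedling libraries, 5.22 and 6.13 in the bud libraries, and 1.14 and 1.18 in the silique libraries. Without the first seedling library its silique percentage was 40.9% in place of 21.7%, which is outside the rule. Across the members, the libraries of a tissue were more than 2-fold apart in 39 members for seedling, in 5 for flower bud and in 52 for silique. As shares these are 19.5%, 2.5% and 26.0% of the members, against 13.8%, 1.5% and 2.53% of all genes at or above the level of rank 200. The rule picks members by a low silique mean, and their silique reads were few, with a median of 22 per member over both libraries and under 10 in 42 members.

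The edgeR quasi-likelihood test was run over all genes of the deposited count table, which reaches 143 of the members, and called a gene at an adjusted p under 0.05 and at least 2-fold. All 143 passed its filter on low counts. It called 142 of them lower in silique than in seedling, where 18.0% of the 34296 genes tested were called lower, and 142 lower in silique than in flower bud, where 13.0% were. Lower in silique than in both were 142 members, against 3.58% of all genes tested. Both contrasts share the silique libraries and both entered the rule, so nothing is read from these counts. Between flower bud and seedling 16 of the 143 were called, all lower in flower bud, against 43.0% of all genes tested in either direction. The rule had limited that contrast too, and held the deposited means of these 16 within 2-fold. Their calls were made in edgeR's own fit, which differs from the deposited values in its scaling and in not taking plain means of the libraries. These differences were not separated. As deposited, flower bud was higher in 112 of the 200 members, and 163 still met the rule under edgeR's own scaling. The cause was not tested. Limma on the normalized values called 0 of the 200 members with a pseudocount of 1 or 0.1. The rule had held the means of these same values within 2-fold, so few such calls were possible. On the reads recovered from the normalized table, which covers all 200 members, 199 were called lower in silique than in seedling (background 17.7%), 198 lower than in flower bud (background 12.4%), 198 lower than in both (background 3.39%) and 26 different between flower bud and seedling (background 42.1%).

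Length and position of the genes played no part in the rule. Over the 143 members with a gene model in the count table, the median span was 2668 bp with quartiles of 1818 and 3531 bp, against 2719 bp with quartiles of 1787 and 4260 bp over 31128 expressed genes. Per kilobase of span, the median level was 2.61 over these members and 3.10 over the expressed genes. The plus strand held 73 and the minus strand 70. Another gene model overlapped 15 of them, which is 10.5% against 20.2% of expressed genes, and no source used here says whether counting used the strand, so the reads of those 15 are uncertain. The A chromosomes held 86 members and the C chromosomes 114. That is 43.0% on A against 47.3% of expressed genes.

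The chromosome where the members were most frequent was C2, with 33 of the 200. They made up 1.39% of the expressed genes of C2, against 0.417% over all chromosomes and 0.367% outside C2. Chromosome A3 followed with 18 members (0.538% of its expressed genes), C6 with 17 (0.757%), A2 with 15 (0.695%) and A1 with 14 (0.633%). Outside C2 the A chromosomes held 51.5% of the members against 49.8% of the expressed genes. As a comparison, the same rule was turned to genes low in flower bud and to genes low in seedling, again with 200 genes each. Of these, 7 and 14 lay on C2. The 3 sets share all 6 libraries and differ in level, with medians of 6.61, 27.9 and 78.1. The count on C2 was 12 of 69 genes when 1 was added to every value before taking ratios, and 16 of 200 when the second library of each tissue was used alone.

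**Figure D3:**
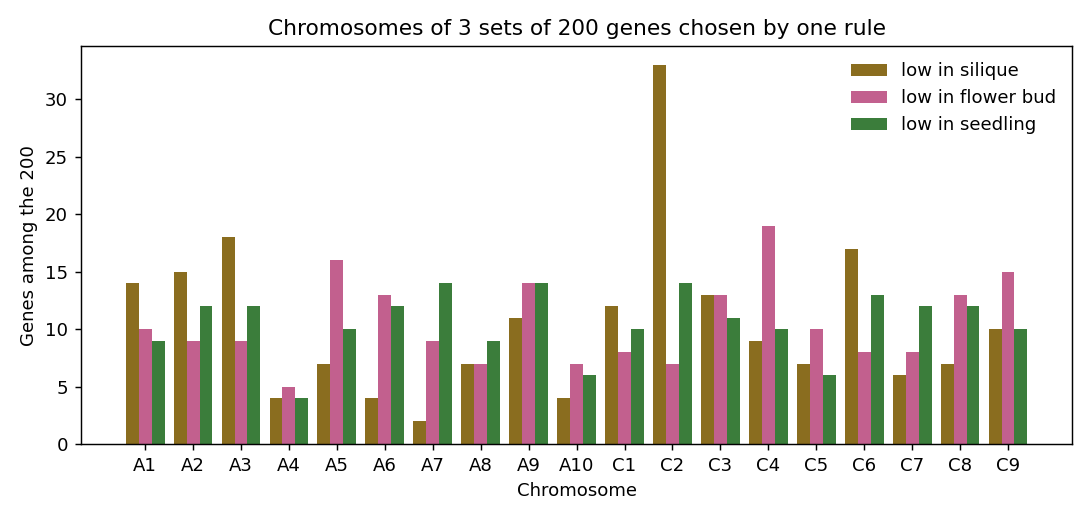
Number of genes on each chromosome among 3 sets of 200 chosen by the same rule for low silique, low flower bud and low seedling. Chromosome C2 holds 33 of the genes low in silique, against 7 and 14 of the other sets, and is the tallest bar.

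Most of the C2 members lay near one end. A window of 25 consecutive expressed genes was moved along every chromosome, and the median of log2 of silique over the level in the other tissues (0.1 added to each) was taken in each window. It was at or below −1 in 188 of 47488 windows, and 163 of these were on C2. The longest run of such windows spanned 63035091 to 64965281 of C2 (1.93 Mb, 274 gene models, 88 of them expressed) and is called the low block below. It held 13 members. A longer stretch before it, 54193486 to 63034971 (8.84 Mb, 378 expressed genes), where windows at or below −0.5 begin, held 9 members and is called the outer stretch. This stretch was patchy. Runs of windows at or below −1 lay within it at 55753990 to 56855609 (40 windows) and at 59606535 to 60116395 (32 windows). A shorter run of 3 windows began at 54618068. The distal end, from 64968881 to the last gene model at 65217261 (21 expressed genes), held 1 member. The remaining 10 C2 members were spread over the rest of the chromosome. These borders were drawn after the silique values were seen, from the same values, so what follows describes the region and tests nothing.

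**Figure D4:**
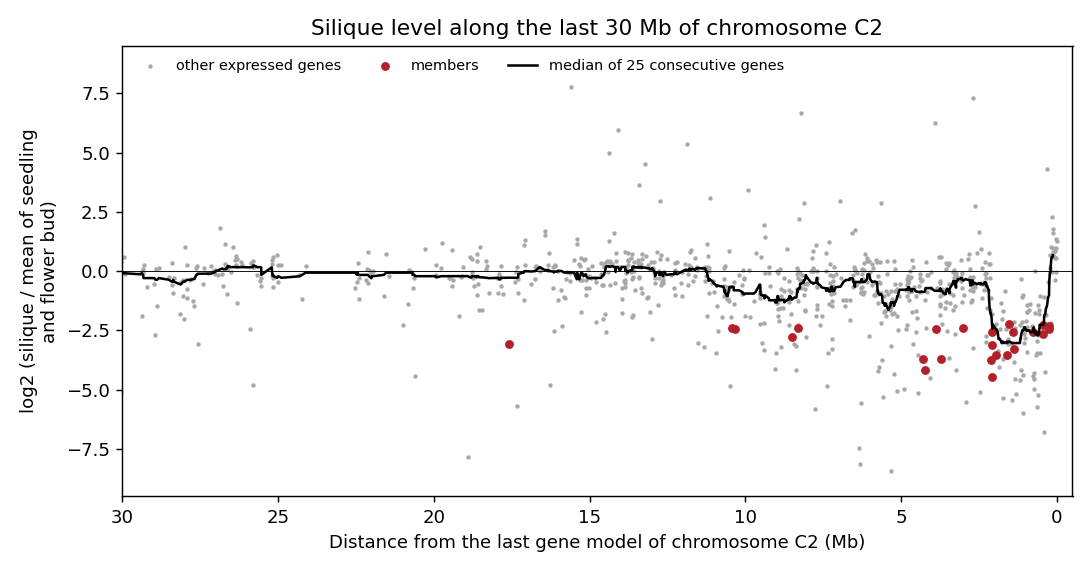
Log2 of the silique mean over the average of the seedling and flower bud means (0.1 added to each) for expressed genes in the last 30 Mb of chromosome C2, against the distance in Mb from the last gene model. Members are red, other genes gray, and the line is the median of 25 consecutive genes. The line stays near 0, turns lower in the outer stretch, drops to about the height of the members in the low block and is above 0 at the very end.

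The members of the low block began with a close group of 5. ZS11C02G065120 (63099910 to 63116145, minus strand, overlapping 2 other gene models) had 15.6 and 26.2 in the seedling libraries, 13.2 and 9.07 in the bud libraries, and 0.811 and 1.38 in the silique libraries. ZS11C02G065140 (63122840 to 63125654, plus strand) had 4.52 and 4.91 in the seedling libraries, 6.74 and 7.32 in the bud libraries, and 0.974 and 0.197 in the silique libraries. In both genes the 4 other libraries lay well above the silique libraries, by 14.6-fold and 10.04-fold in the means. The silique percentage of ZS11C02G065140, 9.97%, was 3.35% without the first silique library and 16.6% without the second. Then came ZS11C02G065200 (63144244 to 63146056, plus strand), with 5.91 and 8.19 in the seedling libraries, 5.30 and 3.66 in the bud libraries, and 0.324 and 0 in the silique libraries, which gave 2.82% of the other tissues and 0% or 5.63% with 1 silique library left out. Its end overlaps the next member, ZS11C02G065210 (63145535 to 63147276, minus strand), with 6.55 and 7.10 in the seedling libraries, 10.7 and 9.79 in the bud libraries, and 1.46 and 1.28 in the silique libraries. Reads of this pair may have been counted for either gene, so their separate values are uncertain. ZS11C02G065280 (63255830 to 63258272, minus strand) closed the group, with 9.11 and 12.6 in the seedling libraries, 14.8 and 12.7 in the bud libraries, and 0.974 and 0.985 in the silique libraries. The 5 genes did not lean the same way between seedling and flower bud: ZS11C02G065120 and ZS11C02G065200 were higher in seedling, the other 3 in flower bud.

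The other 8 members of the low block are placed along the rest of it (given because they lie in the block, which was drawn after the values were seen). ZS11C02G065880 (63605637 to 63608594, minus strand) was among the lowest members by level, with 2.71 and 3.82 in the seedling libraries, 2.41 and 3.66 in the bud libraries, and 0.162 and 0.197 in the silique libraries. ZS11C02G065990 (63687607 to 63690220, minus strand) had 5.80 and 4.37 in the seedling libraries, 5.38 and 8.60 in the bud libraries, and 1.14 and 1.28 in the silique libraries. Both were clear of overlap, although the silique level stood at 5.70% of the other tissues in ZS11C02G065880 and 20.02% in ZS11C02G065990. The 5.70% came from very few reads, since 1 read was worth 0.0811 and 0.0985 in the silique libraries. It is therefore not firm. ZS11C02G066150 (63821820 to 63824511, plus strand) and ZS11C02G066180 (63839024 to 63840667, plus strand) lie 3 gene models apart. The former had 22.1 and 11.5 in the seedling libraries, 24.4 and 24.4 in the bud libraries, and 3.57 and 3.15 in the silique libraries. The latter had 8.28 and 5.46 in the seedling libraries, 12.7 and 12.2 in the bud libraries, and 0.892 and 0.887 in the silique libraries. In both genes the second seedling library was the lowest outside silique and still more than 2-fold above it. The highest of the 13 by level after ZS11C02G066150 was ZS11C02G067020 (64464717 to 64471942, plus strand), with 18.1 and 22.4 in the seedling libraries, 17.0 and 18.3 in the bud libraries, and 3.25 and 2.96 in the silique libraries. The 4 values outside silique were close to each other, and so were the silique values.

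Towards the end of the block lie the direct neighbours ZS11C02G067470 (64767330 to 64770284) and ZS11C02G067480 (64773108 to 64776069), both on the plus strand. ZS11C02G067470 had 5.72 and 9.28 in the seedling libraries, 11.2 and 10.7 in the bud libraries, and 0.974 and 1.77 in the silique libraries. ZS11C02G067480 had 13.3 and 10.9 in the seedling libraries, 20.7 and 14.2 in the bud libraries, and 3.00 and 2.96 in the silique libraries. Both leaned towards flower bud, and their silique levels were 14.9% and 20.2% of the other tissues. The block's last gene is also a member, ZS11C02G067720 (64963131 to 64965281, minus strand), with 4.07 and 2.73 in the seedling libraries, 3.05 and 3.18 in the bud libraries, and 0.649 and 0.394 in the silique libraries. It lies 3 gene models from the single member of the distal end, ZS11C02G067750 (64971806 to 64973609, minus strand, overlapping 1 other gene model), with 5.12 and 11.2 in the seedling libraries, 10.6 and 10.3 in the bud libraries, and 1.54 and 2.07 in the silique libraries. The latter is thus a low gene just past the border, among neighbours with a median log2 value of −0.24.

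The 9 members of the outer stretch were mostly of low level, with a median of 4.69. The highest was ZS11C02G062800 (61343008 to 61376203, plus strand, overlapping 1 other gene model), the longest gene among the members with a model at 33196 bp. It had 11.7 and 19.7 in the seedling libraries, 21.5 and 21.5 in the bud libraries, and 3.89 and 2.76 in the silique libraries. ZS11C02G062440 (60927109 to 60928965, plus strand), 4 gene models from ZS11C02G062480 described above, had 12.9 and 4.91 in the seedling libraries, 8.35 and 12.6 in the bud libraries, and 0.487 and 0.788 in the silique libraries. This pair had silique levels of 6.59% and 2.80% of the other tissues, and ZS11C02G062930 had 5.04%. The value of ZS11C02G062480 came from 2 silique reads, and it was 5.59% without the first silique library and 0% without the second, so these 3 genes have no firm order. In the other 6 members of the stretch the percentage lay between 12.7% and 17.9%. On the start of C2, far from these zones, the pair ZS11C02G000320 and ZS11C02G000360 lie 4 gene models apart. ZS11C02G000360 had 15.7 and 17.5 in the seedling libraries, 11.9 and 14.2 in the bud libraries, and 1.62 and 2.17 in the silique libraries. ZS11C02G000320 had 10.1 and 14.7 in the seedling libraries, 13.2 and 10.2 in the bud libraries, and 1.30 and 0.690 in the silique libraries, so both were again low in silique alone (these genes of the outer stretch and the start were named after their values were seen).

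Over the 13 members of the low block, the values summed to 121.8 and 129.4 in the seedling libraries, 147.5 and 137.7 in the bud libraries, and 18.2 and 17.4 in the silique libraries. The drop ran from 4.96-fold to 35.5-fold with a median of 6.72-fold, close to the 6.99-fold of all members. The 35.5-fold was that of ZS11C02G065200, with silique values of 0.324 and 0, and rests on very few reads. In all 13 both silique libraries lay below the other 4, 7 genes were on the plus strand and 6 on the minus strand. The 9 members of the outer stretch had a median drop of 6.05-fold, with none overlapping between silique and the rest, and the 10 on the rest of C2 a median of 8.93-fold. All 3 groups lay within the range of drops of the members on other chromosomes. The rule had kept only genes with a silique mean below 0.25 times both other means, from these same values. Both silique libraries lay below the other 4 in 195 of the members as a whole, against 10.8% of all expressed genes. Like drops and the lack of overlap are thus largely fixed by selection, and nothing particular to C2 is read from them.

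Most of the 75 expressed genes of the low block that are not members were also low in silique. These files hold RNA only, so lower transcription in silique and a difference in DNA between the plants sampled for each tissue cannot be told apart here. Their median log2 of silique over the other tissues was −2.46, which is 18.2% of the level in the other tissues. By library, their median log2 values against that level were −0.34 and −0.58 in the seedling libraries, 0.18 and 0.35 in the bud libraries, and −2.63 and −2.61 in the silique libraries. Of these genes 67 (89.3%) were at or below −1, against 15.7% of all expressed genes placed on a chromosome. In the outer stretch the median of the non-members was −0.72 and 37.4% were at or below −1. In the distal end it was 0.74, on the rest of C2 −0.03 and on the other chromosomes −0.02, so the shift turned to the other direction within the last 0.25 Mb of gene models. On the centromere side the border was not sharp. Of the 10 expressed genes before the close group, ZS11C02G064830 had the lowest log2 value, −2.97, and ZS11C02G064990 the highest, 0.75 (named after their values were seen).

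Of the 88 expressed genes of the low block, 37 were below 0.25 times both other tissues, which is 42.0% against 1.90% of all expressed genes. The rule kept 17 of these, 13 of them among the 200 and 4 at a lower level, and left out 20 because their seedling and flower bud means were more than 2-fold apart. Both silique libraries lay below the other 4 in 70.5% of the block's expressed genes, against the 10.8% given above. A log2 value above −1 was found in 8 of the 88, and 3 of these were above 0. With the edgeR test, 45 of 97 tested non-members of the block (46.4%) were called lower in silique than in both other tissues, where 3.58% of all genes were. In the outer stretch the share was 54 of 424 (12.7%) and in the distal end 1 of 22. Among the 75 expressed non-members of the block 42 were called, and the count was 26 without the second flower bud library, 20 without the first silique library and 26 without the second.

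Each member's surroundings were compared by the 10 nearest expressed non-members on either side, with the median of their log2 of silique over the other tissues. For the 13 members of the low block these medians ran from −3.04 to −0.24 with a middle value of −1.91, and for the 9 of the outer stretch from −0.99 to −0.32 with a middle value of −0.67. For the 10 members on the rest of C2 the middle value was −0.18. For the 167 members on other chromosomes it was −0.04, with quartiles of −0.18 and 0.09 and a range of −0.83 to 0.71, and none of the 167 was at or below −1. Around a member outside C2 the middle neighbour thus usually had a silique level near that of the other tissues. A median does not show that the member was the only low gene there. Of all expressed non-members outside C2, 15.0% were at or below −1.

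**Figure D5:**
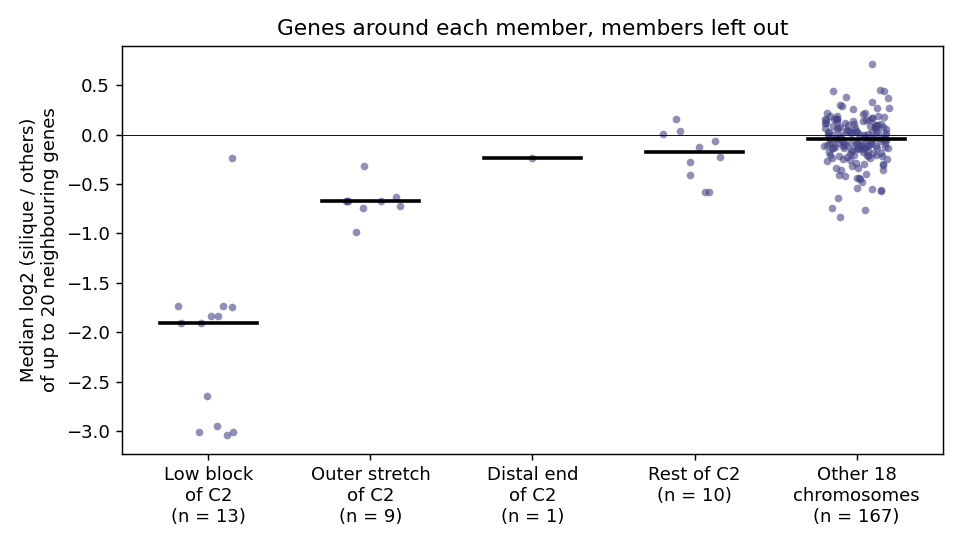
For each member (point), the median log2 of silique over the other tissues among up to 20 neighbouring expressed non-members, by the place of the member. Black lines are medians, at −1.91 in the low block, −0.67 in the outer stretch and −0.04 on the chromosomes other than C2.

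The nearest tested gene on each side was taken from the edgeR fit as well. Of 272 such non-members 21 (7.72%) were called lower in silique than in both other tissues, against the 3.58% of all genes. Within the end region of C2 it was 13 of 35, and elsewhere 8 of 237, which is 3.38% and near the background. Close pairs of members followed the same split. There were 12 pairs with no other member between them and at most 10 gene models apart, 9 on C2, and in 4 of the 12 the genes were direct neighbours. In all, 21 members had another within 10 gene models, against 10 and 6 in the sets low in flower bud and low in seedling, where no members were direct neighbours. Outside C2 the pairs were ZS11A01G016490 with ZS11A01G016530, ZS11C05G001210 with ZS11C05G001220 and ZS11C06G019730 with ZS11C06G019740 (named after their positions were seen).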

How the data were processed

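RNA-seq of HZ62 gave 6 libraries, 2 per tissue. Per the submitters' processing notes HISAT2, SAMtools, GATK, featureCounts and edgeR were used. No source used here gives versions, settings or the genome build. Per the file headers, the count table deposited by the authors holds raw read counts with gene spans for 65535 genes on 13 chromosomes and unplaced sequences. The normalized table deposited by the authors holds a signal scaled by TMM (trimmed mean of M values), in which 100% of values came out as whole reads within 0.05 of a read, and those reads equalled the counts in 100% of the 51324 genes in both tables. Chromosomes of genes found only there were read from the identifiers. Reads shared by related A and C copies may have been split between them.

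Python 3.11.15 with pandas 2.3.3 applied the rule. In R 4.3.3, edgeR 4.0.16 (quasi-likelihood test, TMM factors, filterByExpr, no replicate block, 6 libraries in 1 fit, Benjamini-Hochberg over 34296 genes) gave the main test. It was also run on simulated counts with the same spread for every gene. That outcome is not reported here and says little about errors in these data. Alternatives were DESeq2 1.42.0, limma 3.58.1 on log2 of normalized values plus 1 or 0.1, other scaling factors, no filter, recovered reads (52918 genes), other limits of the rule and each library left out. Depth per library is given in the report, and intervals were not computed for single members.

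The members, the rule for naming genes and the comparisons were chosen with earlier results of these data known. Named were the 2 members with the highest level, the 2 lowest in silique, the 2 at each extreme of flower bud to seedling, the 2 with the widest gap between seedling libraries, those at the limits of the rule and any group of 3 or more within 10 gene models. The windows along chromosomes, the zones of C2 and their alternatives were added after seeing the data. Replicate numbers were not used to pair the libraries in the main test.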

Additional observations from a re-analysis of the deposited data

How the results depend on the processing

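With few silique reads per member, single drops are imprecise, and calls rest on 2 libraries a tissue. Libraries of the same replicate number showed no shared deviation: deviations from the tissue means correlated at −0.02, 0.01 and −0.03 between tissues across genes. This cannot exclude a pairing by plant or batch that leaves no such trace. With the replicate number as a block, 142, 142 and 14 of 143 members were called in the 3 contrasts and 40 of the 75 expressed non-members of the low block, so the block moved no count by more than 1.5 times. Of 128 recomputed counts and medians 99 stayed close to the reported value. Close meant within 1.5 times for a count and within the SD between the silique libraries for a median. Many of the counts were near their upper limit by selection, so this tally is a loose measure. The members called between flower bud and seedling numbered 26 with recovered reads and 12 with DESeq2. With limma they numbered 0 at either pseudocount, on the same normalized values whose means the rule had held within 2-fold. The called non-members of the low block numbered 24 with limma and a pseudocount of 1, and 20 to 43 with 1 library left out. Adding 1 before taking ratios left 69 genes meeting the conditions, 64 of them members and 64 still among the highest 200, with 12 chosen genes on C2, a member median of 25% and a low block median of −1.5. With edgeR's own TMM factors these medians were 12.89% and −2.53. With 1 library left out, 640 to 1544 genes met the conditions, the member median was 12.84% to 14.38% and the block median −2.63 to −2.44. The first libraries alone kept 125 members among the highest 200, with medians of 13.16% and −2.73, and the second alone gave 16 genes on C2, with 13.01% and −2.6. The cause of these shifts was not tested. Of 170 values of the 17 named members under other settings, 151 moved by less than the spread between libraries and 162 stayed below 25%. That spread came from the same 2 libraries a tissue, and leaving out 1 of 2 shifts a mean by less than it. The 151 therefore do not measure stability. The low block median stayed negative in every setting, while counts and percentages cannot change direction.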

Other observations

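The low block of C2 also held genes of higher level that the rule left out because seedling and flower bud differed (named after their values were seen). ZS11C02G065220 (63148378 to 63151444) lies within the close group, between the members ZS11C02G065210 and ZS11C02G065280. It had normalized values of 659 and 1238 in the seedling libraries, 162 and 132 in the bud libraries, and 39.1 and 38.0 in the silique libraries. ZS11C02G067030 (64472560 to 64474205) had 110.4 and 249.3 in the seedling libraries, 15.9 and 16.1 in the bud libraries, and 3.41 and 4.73 in the silique libraries. The opposite lean was seen in ZS11C02G067040 (64473257 to 64477609), whose model overlaps the former, with 8.58 and 6.01 in the seedling libraries, 34.8 and 30.8 in the bud libraries, and 0.487 and 0.591 in the silique libraries. Genes of the block thus differed in which of the other tissues was higher while silique was the lowest in each of these 3. Of the 3 expressed genes of the block that were higher in silique, the strongest was ZS11C02G067650 (64902990 to 64904919), with a mean of 15.8 in silique against 0.038 in seedling and 1.36 in bud. ZS11C02G064990, at the block's first window, was another, with 58.9 and 34.4 in the seedling libraries, 113.2 and 115.2 in the bud libraries, and 129.0 and 141.5 in the silique libraries.

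Chromosome A2 is the A relative of C2. Its last 487 expressed genes, as many as in the 3 zones at the end of C2 (26676009 to 33414770 of A2), had a median log2 of silique over the other tissues of 0.28, against −0.03 over the other 1670 expressed genes of A2. A raised median was not particular to this end of A2. It was 0.26 at the end of A7 and 0.22 at the end of C1 and at the start of A3, and lower at all other chromosome ends. Of the 487 genes 61.4% were above 0, against 48.5% of the rest of A2 and 48.4% of all expressed genes, and 2 were members. By library the medians of these genes were −0.44 and −0.51 in the seedling libraries, 0.33 and 0.32 in the bud libraries, and 0.26 and 0.27 in the silique libraries. Which A2 genes are the copies of which C2 genes was not analysed here, and the difference was not tested.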
